A study of Mus musculus with 99 samples.

Results

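Among 67 single cells that had been outer hair cells (OHCs) and were turned towards inner hair cells (IHCs), 34 had Rprm at 10 CPM or more (counts of a gene scaled to an equal total per cell) and 33 had less. Those 34 Rprm-positive cells were set against the 33 Rprm-low cells across all other genes, to ask whether this IHC gene marks a further step of conversion. Rprm encodes reprimo, described as a p53-induced inhibitor of the cell cycle. The converted cells came from the cochlea of C57BL/6 mice of genotype Slc26a5-CreER/+; Rosa26Tbx2/+ at postnatal day 42. In them an inducible Cre, driven by the OHC gene Slc26a5, turns on the transcription factor Tbx2 from the Rosa26 locus. The remaining 32 of the 99 cells were OHCs of C57BL/6 mice of genotype Slc26a5-CreER/+; Ai9/+ at postnatal day 30, and they serve here as reference levels only. Their age and genotype differ together from those of the converted cells, as does sex: Xist was at 10 CPM or more in 4 OHCs and Y-linked genes in 24. No IHC is among the cells used here.

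IHCs pass sound on to the auditory nerve through ribbon synapses that need otoferlin (Otof) and the vesicular glutamate transporter Slc17a8. OHCs amplify sound with the motor protein prestin (Slc26a5) and hold large amounts of the calcium buffer oncomodulin (Ocm). Tbx2 is required for IHC identity, and both cell types share the stereocilia and the mechanotransduction channel, whose pore is formed by Tmc1.

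Rprm itself chose the sets, so its levels are a description. No read of Rprm was found in 21 of the Rprm-low cells, and the other 12 had reads. The levels nearest the limit were 9.50, 3.30 and 3.21 CPM below it and 27.1, 60.2 and 60.8 CPM above it. Rprm-positive cells had a median of 242.4 CPM and a highest value of 2041 CPM. No OHC had a read of Rprm.

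**Figure D1:**
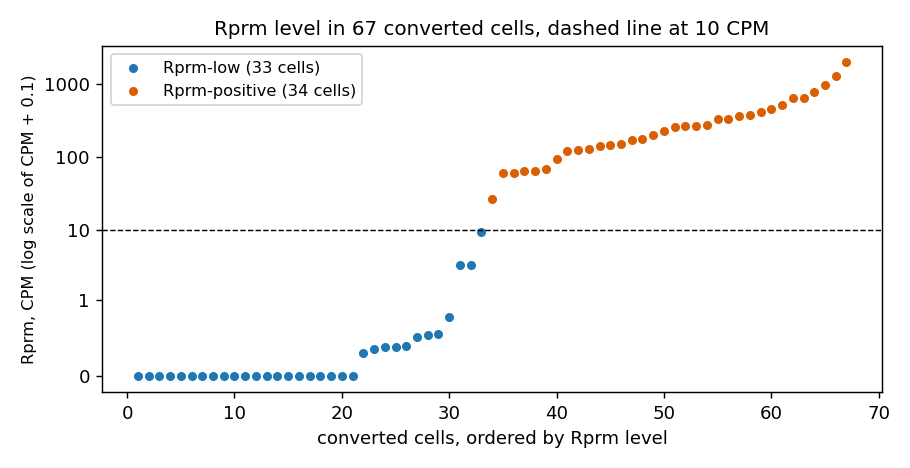
Rprm level of the 67 converted cells, in order of level, as CPM on a log axis of CPM + 0.1. Points are cells, and the dashed line at 10 CPM separates the 33 Rprm-low from the 34 Rprm-positive cells, with a gap between 9.50 and 27.1 CPM.

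Each library is 1 cell and no animal is named, so each set of cells counts as 1 sample. No test between the sets is possible, and no p-value is given. For each gene the counts of a set were summed and divided by the set's total to give a pooled CPM. Differences are log2 ratios of pooled CPM, Rprm-positive over Rprm-low, with 95% intervals that cover counting error only. The spread between cells is shown by the range of CPM per cell. It is also shown by the share of the 1122 pairs of 1 Rprm-positive and 1 Rprm-low cell in which the Rprm-positive cell was higher, ties shared equally. Because all genes come from the same cells as the rule, these values describe the sets.

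The sets differed in more than Rprm. Rprm-positive cells had 7496 to 11719 genes with reads (median 9001.5) and Rprm-low cells had 7081 to 9282 (median 8308), and the former had more genes in 73.8% of pairs. After thinning each cell to 6050000 reads, which left 64 converted cells, the medians were 8798 and 8150 genes. Total counts ran from 4677682 to 13792672 (median 8352991.5) per Rprm-positive cell and from 5774466 to 12462075 (median 7446058) per Rprm-low cell. The Rprm-positive cell had the higher total in 68.2% of pairs. Mitochondrial transcripts made up a median of 3.18% of the counts in Rprm-positive cells, 4.25% in Rprm-low cells and 6.68% in OHCs. Xist was at 10 CPM or more in 28 Rprm-positive and 27 Rprm-low cells, and Y-linked genes were in 6 and 6, so the sets were alike in sex. 4 converted cells stood apart: Rprm-positive cell 11 had a mitochondrial share of 0.287%, cell 33 had 11719 genes with reads, and cell 49 had the lowest summed level of the hair cell genes, 3448 CPM. The fourth was Rprm-low cell 22, which had the highest summed level of the OHC genes, 5519 CPM. Its Ocm level was 4718 CPM and its Rprm level 9.50 CPM, the nearest to the limit. Ratios were therefore repeated without these 4 cells, and in the 25 Rprm-positive and 29 Rprm-low cells that lie in the range of gene number both sets share. Both repeats were chosen after seeing the data.

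Tbx2 was present in every converted cell. It ran from 129 to 2643 CPM (median 783) in Rprm-positive cells and from 113 to 1280 CPM (median 444) in Rprm-low cells, while OHCs had at most 0.123 CPM. The ranges overlapped, yet the Rprm-positive cell was higher in 75.7% of pairs. The log2 ratio was 0.90, and it was 0.86 among cells with Xist and 1.16 among cells with Y-linked reads. Reads from the Rosa26 transgene and from the endogenous gene cannot be told apart in these counts. Gene number, total counts, mitochondrial share and Tbx2 thus moved with the split, and their part in the differences below was not tested.

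IHC genes were not at a higher level in the Rprm-positive cells. Of 9 genes listed for IHCs, 3 had a higher and 6 a lower pooled level in Rprm-positive cells, with a median log2 ratio of -0.32, against 0.09 over all 9714 genes that reached 10 CPM in a set. Of those 9714 genes, 5498 were higher and 4216 lower in Rprm-positive cells, which is the background for the directions in this and the later lists. None of the 9 IHC genes differed 2-fold, beside 9.68% of all genes at least 2-fold higher and 5.55% at least 2-fold lower. The list had a median level of 1179 CPM pooled over the converted cells, against 40.9 CPM for all 9714 genes. Of the 4641 genes at 50 CPM or more, 3.58% were 2-fold higher and 2.35% lower, so none of 9 does not set the list apart. In every alternative computed the median of the IHC genes lay below 0, between -0.41 and -0.10.

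Otof, which triggers vesicle fusion at the ribbon synapse, ranged from 299 to 4943 CPM (median 2453) in Rprm-positive cells and from 1838 to 6075 CPM (median 3291) in Rprm-low cells. OHCs had a median of 493 CPM, below the medians of both sets. The Rprm-positive cells spread further down, and the Rprm-positive cell was the higher in 22% of pairs. The log2 ratio was -0.50 (95% interval -0.51 to -0.50), and -0.45 both without the 4 cells and in the shared range of gene number. Calb2, the calcium buffer calretinin, had medians of 3355 and 4491 CPM and a log2 ratio of -0.33. Atp2a3, a calcium pump of the endoplasmic reticulum, had medians of 1183 and 1519 CPM and a log2 ratio of -0.37. In both, cells of the sets overlapped over most of the range.

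Slc17a8, which loads glutamate into vesicles, ranged from 419 to 2979 CPM (median 1226) in Rprm-positive cells and from 581 to 2020 CPM (median 1042) in Rprm-low cells, and its log2 ratio was 0.18. The ranges overlapped over most of their length, with the Rprm-positive cell higher in 58.6% of pairs. Dnajc5b had the highest ratio of the list, 0.95, with medians of 117 and 53.6 CPM, but among cells with Y-linked reads it was -0.87. Without the 4 cells its ratio was 1.23, past 2-fold, and it was 1.19 in the shared range of gene number. Cabp2, a calcium-binding protein of hair cells, had a log2 ratio of -0.19, Slc7a14 had 0.16 and Shtn1 had -0.48. Fgf8, a signal secreted by IHCs, was at 10 CPM or more in 9 Rprm-positive and 7 Rprm-low cells. Its log2 ratio, -0.32, is the list median, although 1 cell held 46.2% of its Rprm-low counts. Without the highest cell of each set the ratio of Fgf8 was 0.18. Summed over the list, the medians were 10619 and 13991 CPM, against 2447 CPM in OHCs. By this sum the Rprm-positive cell was higher in 25.8% of pairs, but by the list mean of log2(CPM + 1) in 50.9%.

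The 8 genes that earlier results had shown to be switched on in converted cells, whose sum had a median of 0 in OHCs, were also close between the sets. Their median log2 ratio was 0.20, none differed 2-fold, and summed medians were 3495 and 3089 CPM. Of these, Ntrk2, the receptor for brain-derived neurotrophic factor, had 240 and 209 CPM pooled. Cib3, which can serve as a subunit of the mechanotransduction complex, had the lowest log2 ratio of the 8, -0.63, with 274 and 425 CPM pooled.

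OHC genes gave no one direction. Of 10 listed genes, 7 reached 10 CPM in a set, 3 higher and 4 lower in Rprm-positive cells, with a median log2 ratio of -0.15. Of the 7, 1 (14.3%) was at least 2-fold lower and none 2-fold higher, beside 5.55% and 9.68% of all genes. It was Chrna10, a subunit of the receptor for efferent input to hair cells, at 2.12 and 16.2 CPM pooled (log2 ratio -2.94) and at 10 CPM or more in 2 and 7 cells; it overlaps another gene, so its counts are uncertain. Over all 10 the median was -0.40, but it was 0.020 without the 4 cells and 0.058 in the shared range of gene number. Both repeats leave out Rprm-low cell 22, which had the highest sum of these genes, so they are not independent. Without the 4 cells the rise is partly set by that choice. Summed over the list, medians were 1134 CPM in Rprm-positive, 956 CPM in Rprm-low and 54590 CPM in OHC cells.

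Ocm ranged from 0 to 2416 CPM (median 1.06) in Rprm-positive cells and from 0 to 4718 CPM (median 22.9) in Rprm-low cells, against 17896 to 62656 CPM in OHCs. Every converted cell was below every OHC, and the sets overlapped from 0 upwards. The log2 ratio of -0.64 leans on single cells. Cell 22 held 45.7% of the Rprm-low counts, and 1 Rprm-positive cell held 36.4% of that set's counts. Without the highest cell of each set the ratio was -0.41, and the Rprm-positive cell was higher in 40.7% of pairs. Without the 4 cells, which include cell 22 but not the highest Rprm-positive cell, it was 0.32. In the shared range of gene number, which also leaves out cell 22, it was 0.85. Slc26a5 was close to absent, with 161 counts summed over the Rprm-positive cells and 4 over the Rprm-low cells. Lbh, a regulator needed for OHC upkeep, had 66 and 1581 counts. Lmod3, an actin nucleator, had 0 and 1320 counts, of which 70.8% came from 1 Rprm-low cell.

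The 3 higher members were Strip2, Ikzf2 and Sri. Strip2 ranged from 0.1 to 637 CPM (median 271) in Rprm-positive cells, from 2.10 to 664 CPM (median 116) in Rprm-low cells and from 404 to 2994 CPM (median 1297) in OHCs. The Rprm-positive cell was higher in 79.2% of pairs, and the log2 ratio was 0.97, with 0.95 without the 4 cells. Ikzf2, the transcription factor helios that drives OHC gene expression, was at 10 CPM or more in 14 Rprm-positive cells, 3 Rprm-low cells and 30 OHCs. Its pooled levels were 21.5, 10.9 and 340 CPM, a log2 ratio of 0.98 between the sets and of 0.49 in the shared range of gene number, and it overlaps the exon of another gene, so its counts are uncertain. Sri, the calcium-binding protein sorcin, had medians of 484 and 432 CPM in the sets and 2926 CPM in OHCs. Aqp11, an aquaporin, had medians of 4.89 and 20.6 CPM, against 1941 CPM in OHCs.

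**Figure D2:**
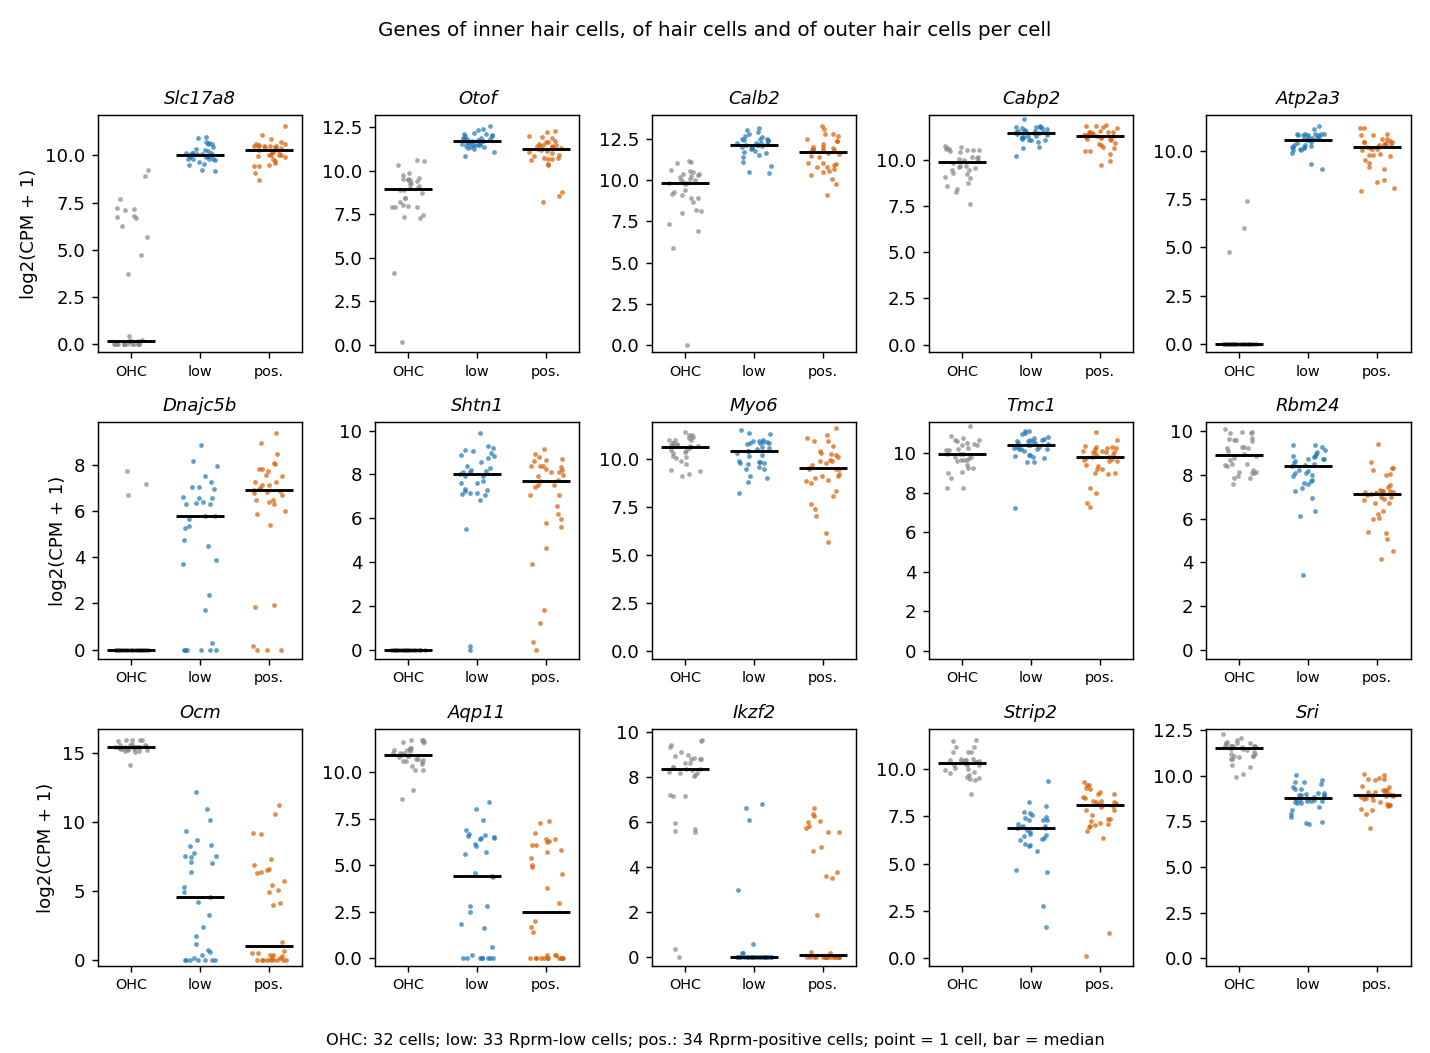
Level of 15 genes per cell, as log2(CPM + 1), in 32 OHCs, 33 Rprm-low and 34 Rprm-positive cells; points are cells and bars are medians. For the IHC genes both sets of converted cells have medians above that of the OHCs and overlap each other, while Rbm24, Tmc1 and Myo6 have lower medians in the Rprm-positive cells.

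Genes shared by all hair cells were lower in Rprm-positive cells more often than higher. Of 10 listed, 8 had a lower and 2 a higher pooled level, the median log2 ratio was -0.48, and 2 were at least 2-fold lower, beside 5.55% of all genes. In the shared range of gene number the median was -0.26 and 1 gene was 2-fold lower. The 2 were Gfi1, a transcription factor needed for hair cell survival, and Rbm24, a regulator of splicing. Summed over the list, Rprm-positive cells had a median of 9612 CPM, Rprm-low cells 10998 CPM and OHCs 11660 CPM.

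Rbm24 ranged from 17.1 to 680 CPM (median 140) in Rprm-positive cells and from 9.78 to 654 CPM (median 342) in Rprm-low cells, with a median of 481 CPM in OHCs. Most Rprm-positive cells lay below the middle of the Rprm-low cells, and the Rprm-positive cell was higher in 18.6% of pairs. The log2 ratio was -1.07, with -1.05 without the 4 cells and -0.98 in the shared range of gene number. Tmc1 ranged from 156 to 2109 CPM (median 889) and from 146 to 2237 CPM (median 1334), a log2 ratio of -0.62, with the Rprm-positive cell higher in 21.3% of pairs. Both are among the few genes for which this share was at most 30%, as it was for 1.48% of all genes. A share of 70% or more was found for 2.4% of all genes. Myo6, a motor of the stereocilia base, had medians of 727 and 1363 CPM and a log2 ratio of -0.49, which was -0.13 in the shared range of gene number. Pou4f3, a transcription factor required for hair cell differentiation, had medians of 231 and 314 CPM and a log2 ratio of -0.55. Gfi1 had medians of 18.3 and 85.3 CPM and a log2 ratio of -1.17.

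The mechanotransduction list of 12 genes, which shares Tmc1, Lhfpl5, Cib2 and Myo7a with the hair cell list, had a median log2 ratio of -0.41, with 9 lower and 3 higher. Of the 12, 1 (8.33%) was at least 2-fold lower and none 2-fold higher, beside 5.55% and 9.68% of all genes. It was Cdh23, a tip link cadherin, at 74.1 against 180 CPM pooled and a log2 ratio of -1.28. In the shared range of gene number that ratio was -0.85, under 2-fold. Myo15, the motor that carries cargo to stereocilia tips, had medians of 145 and 433 CPM, against 1875 CPM in OHCs, and was higher in the Rprm-positive cell in 21% of pairs.

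For the ribbon synapse the median log2 ratio of 12 genes was -0.09, with 6 higher and 6 lower. Pooled levels of Ctbp2, whose product ribeye builds the ribbon, were 172 and 160 CPM. Those of Cacna1d, the calcium channel of the synapse, were 277 and 349 CPM. Of the 12, 1 (8.33%) was at least 2-fold lower and none 2-fold higher, beside 5.55% and 9.68% of all genes. It was Cabp1, a calcium sensor of the Cacna1d channel, with 8.11 and 19.4 CPM. Its log2 ratio was -1.26, and -0.64 in the shared range of gene number.

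Of 12 potassium channel genes, 9 reached 10 CPM, 3 higher and 6 lower, with a median log2 ratio of -0.27, which was 0.020 in the shared range of gene number. Of the 9, 1 (11.1%) was at least 2-fold higher and none 2-fold lower, beside 9.68% and 5.55% of all genes. It was Kcnmb2, an auxiliary subunit of the large-conductance channel, at 27.3 and 9.99 CPM (log2 ratio 1.45), and at 10 CPM or more in 9 and 4 cells. Kcnma1, the pore of that channel, had 155 and 99.3 CPM. Kcna10, a voltage-gated channel, was at 2266 and 2725 CPM pooled.

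Targets of p53 and growth arrest genes were listed because of what Rprm is known for. Of 18, 13 reached 10 CPM, 4 higher and 9 lower, with a median log2 ratio of -0.24. Over the 17 with a ratio the median was -0.14 and the mean 0.48, so the sign depends on that choice. The mean is raised by Plk2, with 754 counts against 0, and Phlda3, with 183 against 0. Both lay under 10 CPM, and their Rprm-low sums of 0 were set to 3 counts. Cdkn1c, also under 10 CPM, went the other way with 8 counts against 163. Of the 13, 1 (7.69%) was at least 2-fold higher and 2 (15.4%) at least 2-fold lower, beside 9.68% and 5.55% of all genes. Trp53, which encodes p53, was at 31.5 and 31.1 CPM pooled. Cdkn1a, the cell cycle inhibitor p21, had 38.7 and 121 CPM and a log2 ratio of -1.65, although 1 Rprm-positive cell held 66.5% of that set's counts. In the shared range of gene number the ratio was -0.93, under 2-fold. It was at 10 CPM or more in 7 Rprm-positive and 18 Rprm-low cells. Gadd45a had a log2 ratio of -1.04 and Gadd45g one of 2.23, which was 1.17 in the shared range of gene number. None of the 10 listed G2/M genes reached 10 CPM in either set.

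Among immediate early and stress genes, which dissociation of tissue can induce, 9 of 10 reached 10 CPM and their median log2 ratio was 0.28. It was 0.21 in the shared range of gene number, 0.051 without the 4 cells and -0.30 among cells with Y-linked reads. Fos had medians of 139 and 68.8 CPM and a log2 ratio of 1.06, which was 0.92 in the shared range of gene number and -0.30 among cells with Y-linked reads. Junb had medians of 540 and 249 CPM and was higher in the Rprm-positive cell in 70.8% of pairs. Nr4a1 had a log2 ratio of 1.63, but 1 cell held 75.2% of the Rprm-positive counts. In the shared range of gene number its ratio was -0.54. Hspa1a, a heat shock gene with a near-identical copy, had a log2 ratio of -1.45, but 1 cell held 59.4% of the Rprm-low counts. Without the highest cell of each set its ratio was -0.82, and the Rprm-positive cell was higher in 50.7% of pairs.

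Markers of other cell types were measured in both sets. The 10 supporting cell genes summed to a range of 0 to 870 CPM (median 4.57) in Rprm-positive cells and 0 to 134 CPM (median 1.77) in Rprm-low cells, with Epyc and Prox1 at 0 in both. Several others had their counts almost wholly in a few Rprm-positive cells: Gjb2 had 2900 counts against 2, Slc1a3 2232 against 0, Otogl 1306 against 0, Tectb 873 against 4 and Gjb6 4199 against 543. Each of these 5 was at 10 CPM or more in at most 2 Rprm-positive cells. Lgr5 went the other way, with 2816 and 7141 counts. The 5 glial genes summed to at most 58.1 and 119 CPM, with medians of 0 and Pmp22 at 0. The blood and macrophage genes summed to at most 337 and 136 CPM, with medians of 29.6 and 0 CPM. Of the pooled 71.3 and 33 CPM, C1qb made up 69.1 and 24.3 CPM, and it was at 10 CPM or more in 20 Rprm-positive cells, 10 Rprm-low cells and 0 of 32 OHCs; taking 3 cells as the limit of a count of 0, a share of up to 9.38% is allowed. C1qa and Cx3cr1 were at 0 in both sets. Neuronal genes summed to at most 461 and 400 CPM, with medians of 188 and 127 CPM. Most came from Nefm, a neurofilament, at 198 and 151 CPM pooled and at 10 CPM or more in 33 and 30 cells. Tubb3, a neuronal tubulin, had 16.3 and 4.67 CPM (log2 ratio 1.80), and Prph and Thy1 were at 0. The part of these markers in the other differences was not tested.

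Over all genes, 940 were at least 2-fold higher and 539 at least 2-fold lower in Rprm-positive cells, of 9714 at 10 CPM or more. Such ratios can rest on few cells, so genes were also ranked by the share of pairs of cells among 4641 genes at 50 CPM or more, a ranking added after seeing the data. Of the 15 genes at each end, 14 of the higher and 12 of the lower also differed 2-fold. All 30 kept their direction among cells with Xist, among cells with Y-linked reads, in the shared range of gene number and without the 4 cells. These subsets are parts of the cells that ranked the genes. The agreement is therefore partly set by the choice and is a description only.

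**Figure D3:**
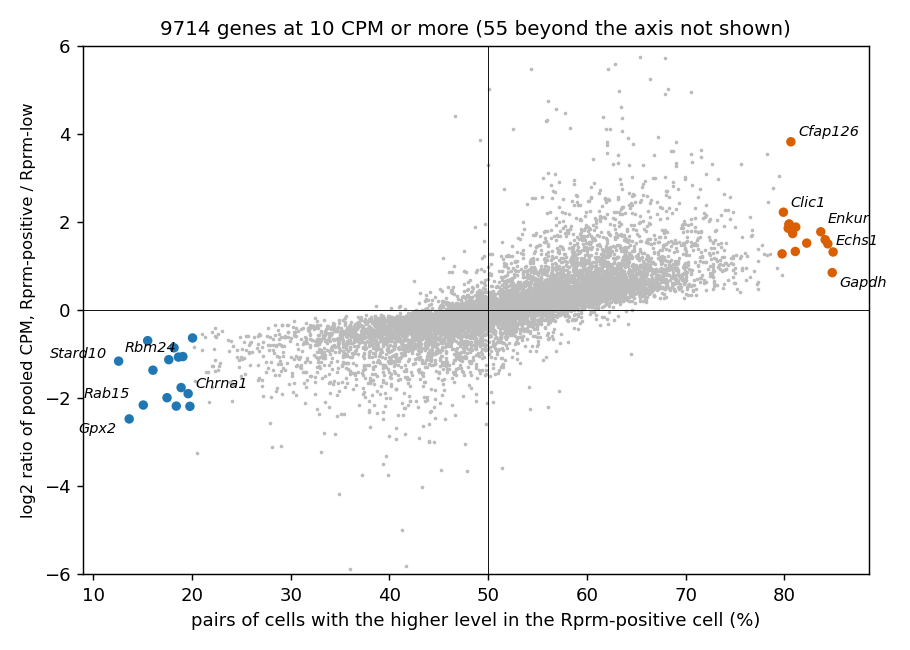
Share of pairs of cells with the higher level in the Rprm-positive cell, in percent, against the log2 ratio of pooled CPM, for 9714 genes at 10 CPM or more; 55 genes beyond a log2 ratio of 6 in size are not shown. Coloured points are the 15 genes with the highest and the 15 with the lowest shares among genes at 50 CPM or more.

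At the lower end stood Gpx2, a glutathione peroxidase that removes hydrogen peroxide. It ranged from 0 to 3745 CPM (median 71.9) in Rprm-positive cells, from 0.699 to 6529 CPM (median 2826) in Rprm-low cells and from 1734 to 8194 CPM (median 4682) in OHCs. Most Rprm-low cells lay within the range of the OHCs, and most Rprm-positive cells lay below it. The log2 ratio was -2.47 (95% interval -2.48 to -2.46), with -2.32 among cells with Xist, -3.72 among cells with Y-linked reads and -1.91 in the shared range of gene number.

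Stard10, a lipid transfer protein, had the lowest share of pairs, 12.6%. It ranged from 78.6 to 1566 CPM (median 576) in Rprm-positive and from 225 to 2194 CPM (median 1458) in Rprm-low cells, around an OHC median of 850 CPM. Rprm-low cells thus lay mostly above and Rprm-positive cells mostly below the middle of the OHCs. Atp11a, a phospholipid flippase of the plasma membrane, had medians of 463 CPM in Rprm-positive, 1249 CPM in Rprm-low and 904 CPM in OHC cells.

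Chrna1, the muscle-type alpha subunit of the nicotinic acetylcholine receptor, was nearly absent from OHCs. It was at 10 CPM or more in 28 of 33 Rprm-low cells (84.8%, exact Clopper-Pearson 95% interval 68.1 to 94.9%) and in 10 of 34 Rprm-positive cells (29.4%, 15.1 to 47.5%), but in 1 OHC. The medians were 187 CPM in Rprm-low and 0.123 CPM in Rprm-positive cells, so it was high in most cells of the former set and in a minority of the latter. The log2 ratio was -1.90, and without the highest cell of each set it was -2.54. The intervals of the 2 shares take cells as independent draws and leave out differences between animals. Since the gene was also picked by rank, they are a description and no test.

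Rab15, a small GTPase of recycling endosomes, had medians of 5.48, 184 and 253 CPM in Rprm-positive, Rprm-low and OHC cells, and was at 10 CPM or more in 16, 29 and 31. Lrtm2, a leucine-rich repeat membrane protein, was at 10 CPM or more in 9, 25 and 31 cells. Crip3, a LIM-domain protein, had the lowest log2 ratio of the genes that met the naming rule, -3.24, and was at 10 CPM or more in 7, 23 and 31 cells. In these 3 genes more Rprm-low than Rprm-positive cells were at 10 CPM or more, although for Lrtm2 and Crip3 the Rprm-low medians, 74.3 and 70 CPM, lay below the OHC medians of 447 and 367 CPM. The glutamine transporter Slc1a5 had medians of 21.4, 352 and 53 CPM, and the actin-capping protein Capg had 132, 350 and 343 CPM. Trim36, a ubiquitin ligase, had 243, 578 and 235 CPM. Ifit1, an interferon-induced gene, had a log2 ratio of -3.12 and was at 10 CPM or more in 3, 15 and 29 cells. Hip1r, a link between clathrin and actin, had a log2 ratio of -3.09, but -0.14 among cells with Y-linked reads. Plbd1 had the smallest of the 12 lowest ratios, -2.12.

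At the higher end, Gapdh, a glycolytic enzyme, ranged from 723 to 6868 CPM (median 2060) in Rprm-positive cells, from 359 to 2578 CPM (median 1130) in Rprm-low cells and from 229 to 1578 CPM (median 781) in OHCs. The ranges overlapped, while the Rprm-positive cell was the higher in 84.8% of pairs. Its log2 ratio was 0.85, short of 2-fold. Echs1, a mitochondrial enzyme of fatty acid oxidation, had medians of 125 and 27.6 CPM and a log2 ratio of 1.6. Crem, a transcription factor that responds to cyclic AMP, had medians of 352 and 124 CPM, and 0 CPM in OHCs.

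Enkur, a protein of motile cilia, ranged from 0 to 427 CPM (median 123) in Rprm-positive and from 0 to 346 CPM (median 13.0) in Rprm-low cells, and was at 10 CPM or more in 31 and 18 cells. Cfap126, a basal body protein of ciliated cells, was at 10 CPM or more in 20 of 34 Rprm-positive cells (58.8%, 40.7 to 75.4%) and 3 of 33 Rprm-low cells (9.09%, 1.92 to 24.3%), with a log2 ratio of 3.82. Nme5, also known from cilia, was at that level in 26 and 8 cells, and Ttc30b, a part of intraflagellar transport, in 26 and 6 cells. Each of these 4 genes was high in most Rprm-positive cells and in few OHCs, which had it at 10 CPM or more in 4, 1, 4 and 4 cells. They are described singly, since no list of ciliary genes was drawn up. The intervals given for Cfap126 carry the same limit as those for Chrna1.

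Luzp2, a leucine zipper protein, was at 10 CPM or more in 20 Rprm-positive cells, 3 Rprm-low cells and 0 of 32 OHCs, and its log2 ratio was 3.05. Clic1, a chloride intracellular channel protein, was at that level in 27, 10 and 1 cells. Fam13a had medians of 154 and 18.6 CPM. Gm6831, an annotated pseudogene, had the highest share of pairs, 84.9%, with medians of 969 and 243 CPM, though reads may be shared with its parent gene. The same holds for H2-Q2, a major histocompatibility class I gene with close copies, which had the highest log2 ratio of the naming rule, 4.95, and was at 10 CPM or more in 13 and 1 cells. Erap1, which trims peptides for class I molecules, was at that level in 16 and 2 cells. Pdss2, an enzyme of coenzyme Q synthesis, had a log2 ratio of 3.03 but -0.97 among cells with Y-linked reads.

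**Figure D4:**
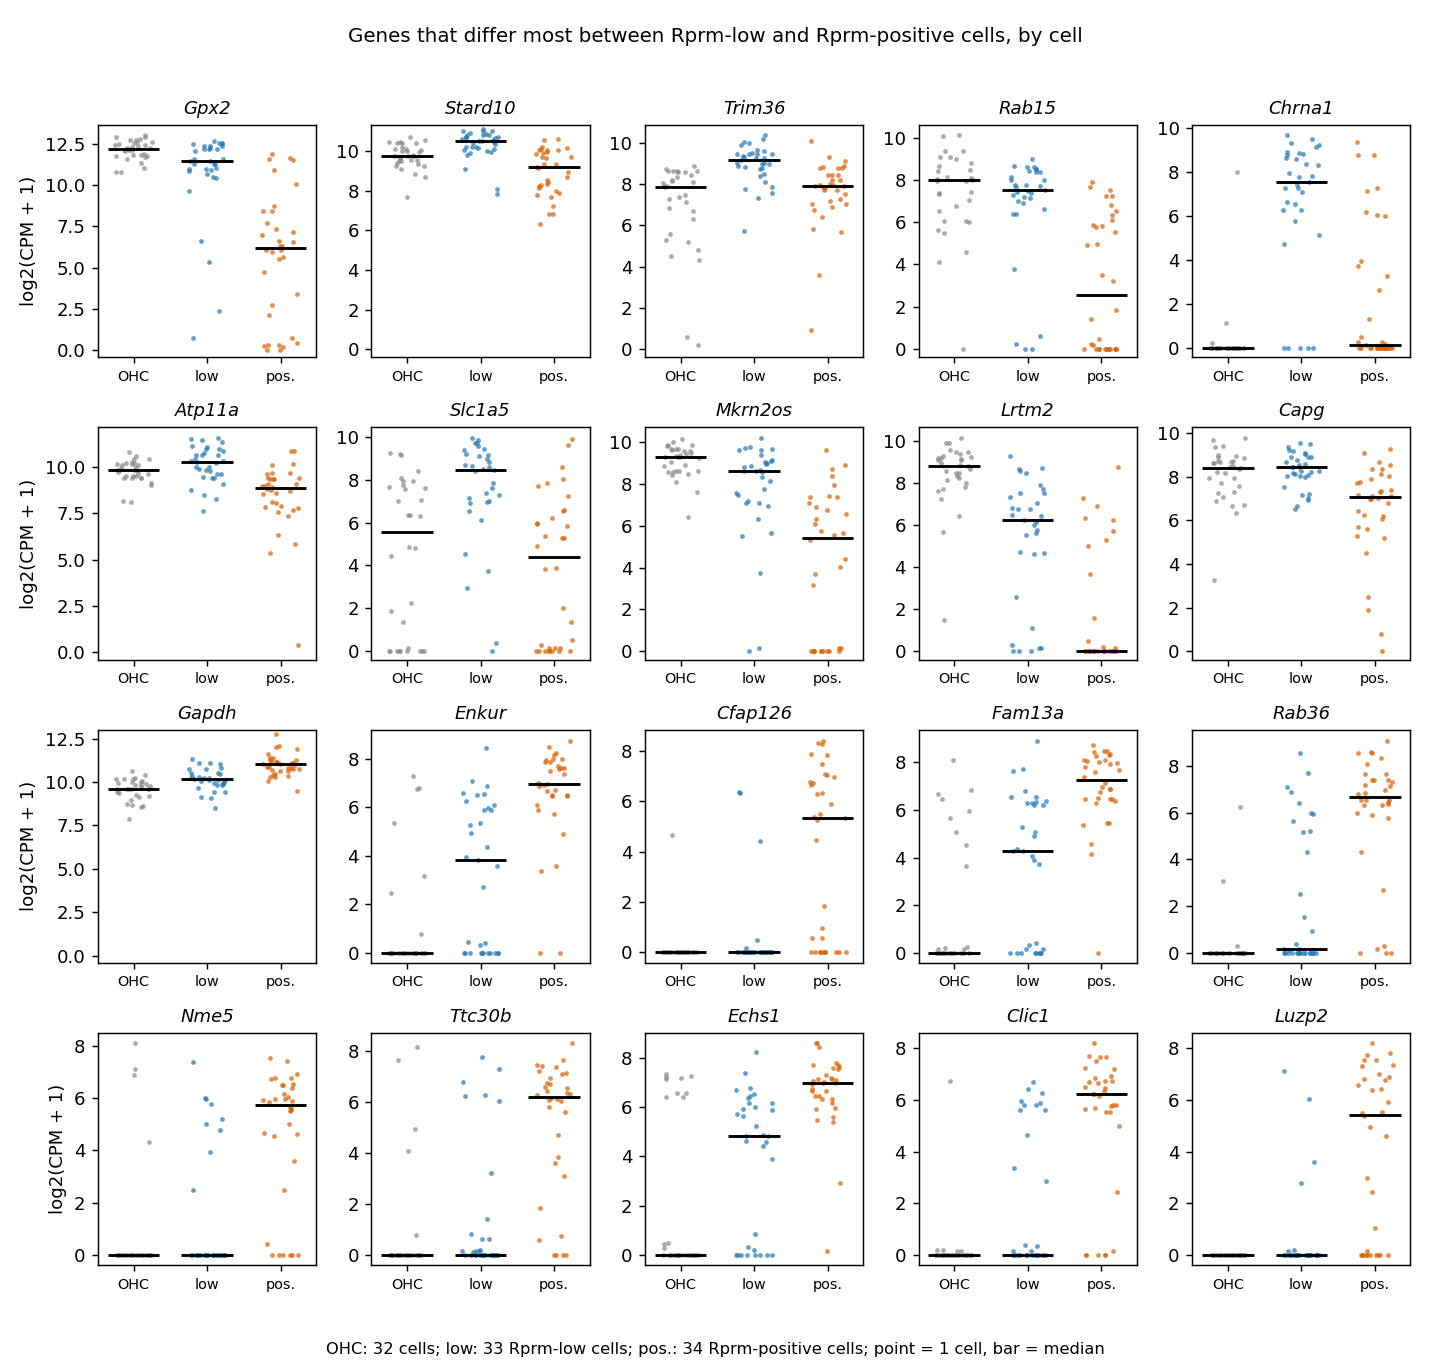
Level of 20 genes per cell, as log2(CPM + 1), in 32 OHCs, 33 Rprm-low and 34 Rprm-positive cells; points are cells and bars are medians. The first 10 genes have lower and the last 10 higher medians in Rprm-positive than in Rprm-low cells, with overlap in every gene.

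Of the 49 genes named by either ranking, 18 overlap an exon of another gene in GENCODE M21, 16 of them one on the other strand. Among them are Gapdh (Iffo1), Echs1 (Paox), Fam13a (Gm45061), Crem (Gm6225), Erap1 (Cast), and Hip1r (Vps37b). Of all 186 genes looked up and found there, 55 overlap an exon of another gene. In the gene lists they include Junb (Prdx2), Gfi1 (A430072P03Rik), Cdkn1a (AC167363.2) and Gadd45a (E230016M11Rik), each with a partner on the other strand. Whether strand was used in counting is not given in the sources used here, so reads of these partners cannot be told apart.

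**Figure D5:**
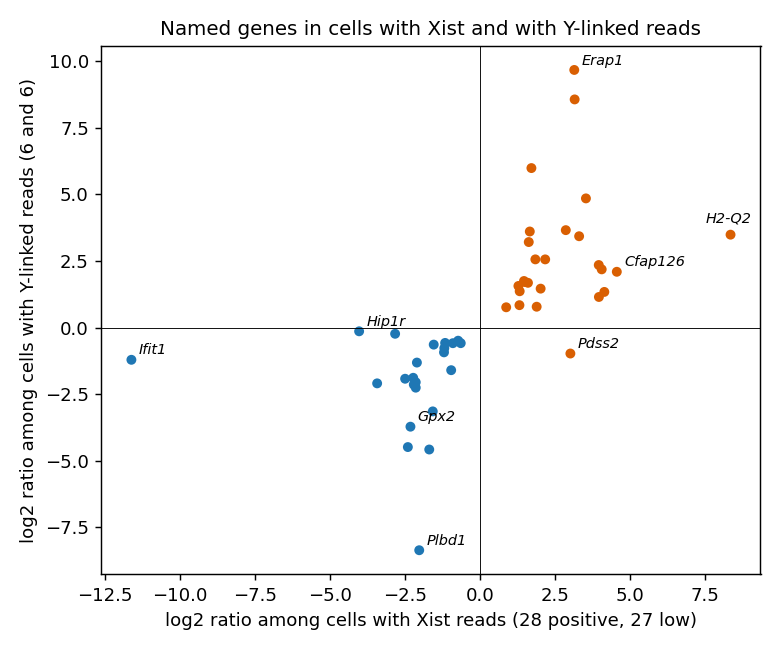
Log2 ratio of pooled CPM among cells with Xist (28 Rprm-positive, 27 Rprm-low) against that among cells with Y-linked reads (6 and 6) for the 49 genes named by either ranking; orange marks genes higher and blue genes lower in Rprm-positive cells. All but Pdss2 have the same sign on both axes, and ratios of the largest size rest on sums at the 3-count floor. The same cells chose these genes, so the shared signs are partly set by the choice.

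The direction of conversion was also followed over genes chosen by how they differ between converted cells and OHCs. The levels that chose them were pooled over all 67 converted cells, which enter both comparisons, so the counts are partly set by the choice and are a description only. Of 215 genes at least 8-fold higher in converted cells than in OHCs and at 50 CPM or more, 146 were higher and 69 lower in Rprm-positive cells, with a median log2 ratio of 0.24. Of all 4641 genes at 50 CPM or more, 2549 were higher and 2092 lower, with a median log2 ratio of 0.05. Past 2-fold, 32 (14.9%) of the 215 were higher and 3 (1.40%) lower, beside 3.58% and 2.35% of all genes at 50 CPM or more. In the shared range of gene number 22 (10.2%) were higher and 6 (2.79%) lower, and without the 4 cells 29 and 4.

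Of 157 genes at least 4-fold lower in converted cells than in OHCs and still at 10 CPM or more, 56 were higher and 101 lower in Rprm-positive cells, with a median log2 ratio of -0.27. Of all 9714 genes at 10 CPM or more, 5498 were higher and 4216 lower. Their median level pooled over the converted cells was 40.9 CPM, against 26.1 CPM for the 157, so the shares below compare genes of unlike level. Past 2-fold, 16 (10.2%) of the 157 were higher and 36 (22.9%) lower, beside 9.68% and 5.55% of all genes at 10 CPM or more. In the shared range of gene number these were 20 and 28, and without the 4 cells 15 and 32.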

How the data were processed

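Full-length cDNA of picked single cells was made with the Smart-Seq HT kit, per the labels' protocols. The authors deposited whole-number read counts per gene symbol for 99 cells, not normalized. The submitters' processing notes name HISAT2 2.2.1, StringTie 2.2.1, featureCounts 2.0.1 and mm10, with no role or order; the annotation and strand setting are not given in the sources used here.

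Cells were split at 10 CPM of Rprm, which was then left out. No cell was removed and no doublet caller was run, as cells were picked singly. Among converted cells there were 0 identical columns. Sums under 3 counts over a set were set to 3, and no ratio was given where both were at or under 3. Genes named by ratio had 20 CPM, reads in 50% of cells and at most 25% of counts in 1 cell of the higher set; the 12 highest and 12 lowest were taken. Members and lists were chosen with earlier results of these data known. The values of 1 listed OHC gene and 1 ranked gene are not reported here.

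Alternatives were means or medians per cell, leaving out each gene's highest cell, thinning, TMM or median-of-ratios scaling, mitochondrial genes left out of totals, other Rprm limits, cells with Xist or Y-linked reads, and other minimum levels. Steps ran in Python 3.11.15 with numpy 2.4.6, pandas 2.3.3 and scipy 1.17.1, with TMM from edgeR 4.0.16 in R 4.3.3, and were tested on simulated data.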

Additional observations from a re-analysis of the deposited data

How the results depend on the processing

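The median log2 ratio of the IHC genes, -0.32, was -0.18 with means and -0.23 with medians of CPM per cell, -0.19 without each gene's highest cell, -0.21 in thinned cells, -0.41 with TMM factors and -0.41 with median-of-ratios scaling. It was -0.34 with totals free of mitochondrial genes, -0.25 at an Rprm limit of 50 CPM, -0.20 among cells with Xist, -0.22 among cells with Y-linked reads, -0.14 in the shared range of gene number, -0.24 without the 4 cells and -0.10 as a list mean. For the OHC genes, -0.40, the values in the same order were -0.44, -0.070, -0.27, -0.43, -0.49, -0.49, -0.41, -0.37, -0.28, 0.18, 0.058, 0.020 and -1.10, and with any read of Rprm against none 0.020. The repeats in the shared range of gene number and without the 4 cells both leave out cell 22, which had the highest OHC gene sum. The cause was not tested.

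The count of genes at least 2-fold higher, 940, was 2259 among cells with Y-linked reads, 3041 at a minimum of 1 CPM and 166 at 50 CPM; for genes at least 2-fold lower, 539, these were 1570, 2125 and 109. In the other alternatives the counts were 787 to 1040 and 486 to 652. These were counted among 8998 to 9829 genes, except with medians per cell, where 988 and 509 were counted among only 5982 genes. Among cells with Y-linked reads the log2 ratio was -0.97 for Pdss2 and -0.30 for Fos, and in the shared range of gene number -0.54 for Nr4a1. No paired analysis was possible because each converted cell belongs to 1 set only and its number names a cell. Counting error is small at these depths; the number of animals, which is not given, limits what the differences can show.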

Other observations

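Mitochondrially encoded genes at 10 CPM or more were lower in Rprm-positive cells, while over all 32 with a ratio the median was -0.09 and the highest 2.30. All 14 that reached 10 CPM in a set had a lower pooled level there, with a median log2 ratio of -0.38, and 0 differed 2-fold. Genes of cytosolic ribosomal proteins did not follow them: of 76 at 10 CPM or more, 34 were higher and 42 lower, with a median log2 ratio of -0.03.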
